A study of Homo sapiens with 12 samples.

Results

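The genes of the proteasome family were described in C4-2 cells that overexpressed the RNA demethylase ALKBH5. Members were all protein-coding genes of the table whose symbol begins with PSMA, PSMB, PSMC, PSMD, PSME, PSMF or PSMG. There were 49 of them among 20308 genes. The interferon-inducible members PSMB8, PSMB9, PSMB10, PSME1 and PSME2 were set apart from the other 44, which are called constitutive here. PSMC3IP and PSME3IP1 meet the rule by name only, since they encode partners of proteasome proteins, and they were kept among the 44.

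C4-2 is an established line of castration-resistant human prostate cancer. The compared groups were oeALKBH5, C4-2 cells that overexpressed ALKBH5, and NC, C4-2 cells with an empty vector; no other treatment is named. Each group had 3 input libraries of ribosome-depleted total RNA with gene values, 6 of the 12 samples of the study. The vector, its promoter and whether the cells were a clone or a pool are not given in the sources used here, nor is the origin of the replicates (separate cultures or repeats of one). P-values therefore measure only how far these libraries differ, which can be technical. In a culture measured in bulk, fewer cells that express a gene and less of its RNA per cell cannot be told apart.

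The proteasome is the protease that degrades proteins tagged with ubiquitin. Its core, the 20S particle, is a barrel of alpha rings, which gate the entrance, and beta rings, which hold the catalytic sites. The 19S regulatory particle caps the core, binds and unfolds the substrates with a ring of ATPases and removes their ubiquitin. Under interferon, cells make the alternative catalytic subunits beta1i, beta2i and beta5i (PSMB9, PSMB10 and PSMB8), which are built into the core of the immunoproteasome. Cells then also make the separate activator PA28 alpha and beta (PSME1 and PSME2). Both favour peptides for MHC class I presentation.

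Values were FPKM as deposited by the authors, a level per transcript length that can be compared between genes. The libraries summed to between 511333 and 524905 FPKM, and their absolute depth is unknown. ALKBH5 stood at 80.3, 74.3 and 72.5 FPKM in oeALKBH5 libraries 1, 2 and 3, against 64.9, 61.1 and 58.2 FPKM in NC libraries 1, 2 and 3. These groups did not overlap, but the difference did not pass the limma test (log2 fold change 0.30, SE 0.10, adjusted p = 0.114). All 11 markers of prostate cancer cells, among them KLK3, were at 52.3 FPKM or higher in every library.

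Most constitutive proteasome genes were lower in oeALKBH5 libraries by a modest amount, and by the sign of the log2 fold change 4 of the 5 inducible ones were not. At the low levels of PSMB9 and PSMB10 that sign was not fixed, and it turned in 2 and 4 of 13 alternatives. The difference between these classes was not tested. The test was limma on log2(FPKM + 1), fitted over 12757 genes that averaged 0.5 FPKM or more, and adjusted by Benjamini-Hochberg over all of them, with calls at an adjusted p under 0.05. Of the 47 members tested, 4 fell, all constitutive: the ATPase PSMC5, the alpha subunits PSMA3 and PSMA7 and the assembly chaperone PSMG3. That is 8.51% of the tested members, where limma called 2.43% of all tested genes lower. In both directions together it called 5.45% of all tested genes. Among genes averaging 20 FPKM or more, 4 of 41 members (9.76%) were called lower, against 5.04% of all such genes, and 0 members were called higher, against 4.13%. By limma 0 members of any level rose, and 1, PSME1, had an unadjusted p under 0.05 on the higher side. Of all 12757 tested genes, 1475 had one on that side.

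Beyond the calls, 39 of 47 members had a negative log2 fold change, 83% of them, against 47.7% of all tested genes and 54.2% of those averaging 20 FPKM or more. All 3 oeALKBH5 values lay below all 3 NC values in 22 members (46.8%), where 13% of all tested genes and 19.3% of those averaging 20 FPKM or more did so. The median log2 fold change was -0.30 over the 42 constitutive members tested, 0.02 over all tested genes and -0.03 over those averaging 20 FPKM or more. The genes of the family are not independent replicates, and the number of calls rests on few libraries: leaving out NC replicate 1 gave 3 calls, NC replicate 2 gave 1 and NC replicate 3 gave 0, while leaving out oeALKBH5 replicate 1 gave 4 and either of the other oeALKBH5 libraries 1. The number with a negative sign stayed between 38 and 42 over the 13 alternatives run. The testis subunit PSMA8 and the thymus subunit PSMB11 were listed at 0 in all 6 libraries and were not tested.

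**Figure D1:**
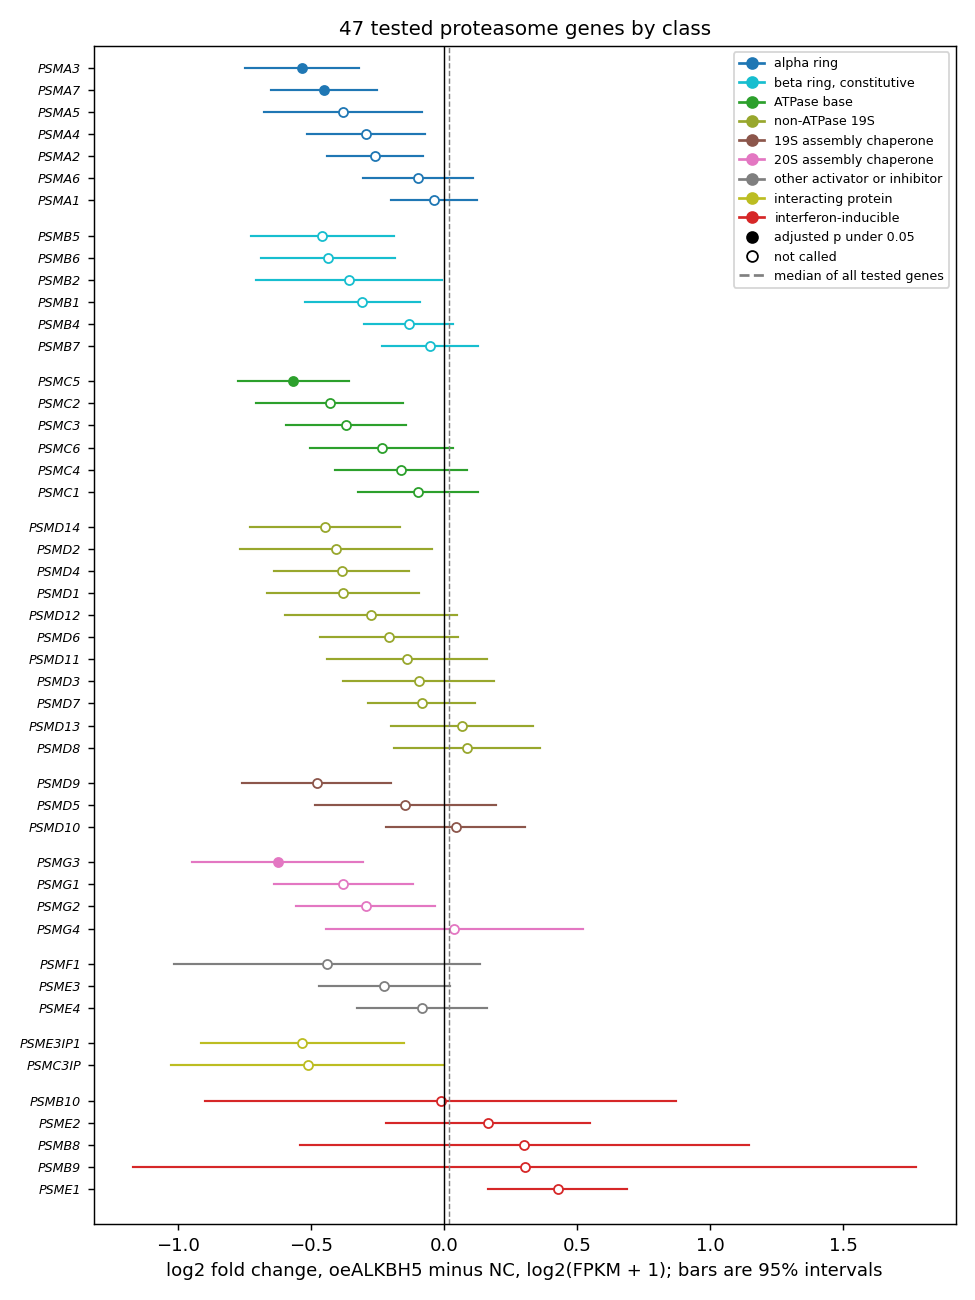
Log2 fold change of each of the 47 tested proteasome genes (oeALKBH5 minus NC, log2(FPKM + 1) scale, 3 libraries each), grouped by class, with 95% intervals from limma; filled points passed an adjusted p under 0.05. The 4 filled points, PSMA3, PSMA7, PSMC5 and PSMG3, lie left of 0, and 4 of the 5 inducible members at the bottom lie right of it. Among these 5, only the interval of PSME1 excludes 0.

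**Figure D2:**
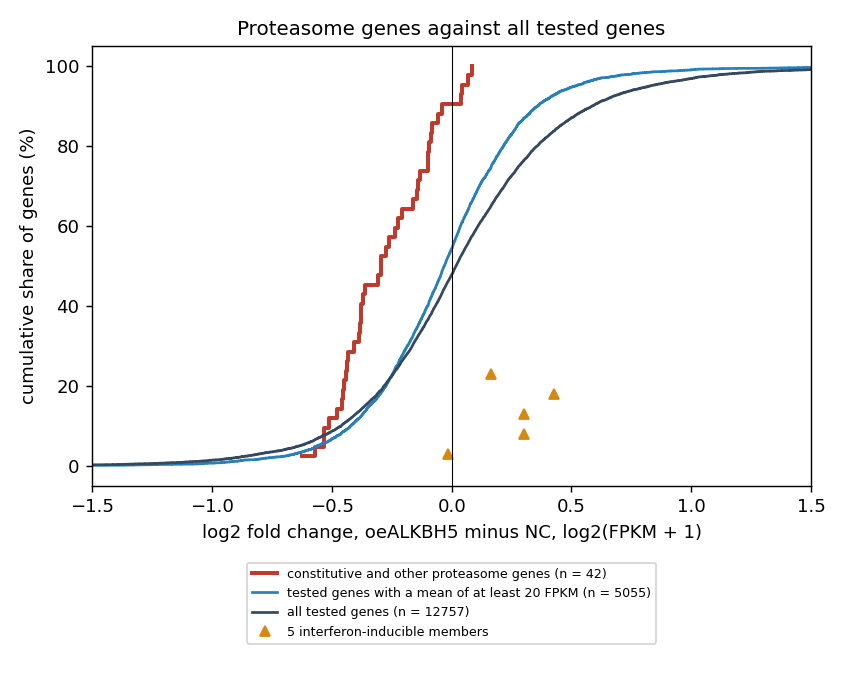
Cumulative share of genes (percent) by log2 fold change, oeALKBH5 minus NC, for constitutive proteasome genes, tested genes averaging 20 FPKM or more and all tested genes; triangles mark the 5 inducible members, at heights that carry no value. The proteasome curve lies left of the other curves over most of its range and ends at 0.09, its highest fold change.

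The 7 subunits of the alpha ring were listed between 67.4 FPKM (PSMA5) and 291 FPKM (PSMA7) in single libraries. Their summed level was 1145, 1055 and 1096 FPKM in oeALKBH5 libraries, against 1304, 1291 and 1431 FPKM in NC libraries, so that the means differed by -18.1% with no overlap. All 7 log2 fold changes were negative, and 2 genes fell. PSMA3, the alpha7 subunit, had 154.8, 128.8 and 135 FPKM in oeALKBH5 libraries, against 185.6, 208 and 214 FPKM in NC libraries. Every oeALKBH5 value lay below every NC value, and the gene fell (limma log2 fold change -0.53, SE 0.09, adjusted p = 0.0159). PSMA7, the alpha4 subunit, had 203, 179.6 and 215 FPKM in oeALKBH5 libraries, against 254, 273 and 291 FPKM in NC libraries. It fell as well, again with no overlap (limma log2 fold change -0.45, SE 0.09, adjusted p = 0.0237).

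The call of PSMA3 was lost without NC replicate 2 (limma adjusted p = 0.0641), NC replicate 3 (0.0847), oeALKBH5 replicate 2 (0.0602) or oeALKBH5 replicate 3 (0.0651). That of PSMA7 was lost without NC replicate 2 (limma adjusted p = 0.0786), NC replicate 3 (0.11), oeALKBH5 replicate 1 (0.0625) or oeALKBH5 replicate 2 (0.0674). The other alpha subunits did not pass the test. PSMA2 (log2 fold change -0.26) and PSMA4 (-0.30) had groups that did not overlap, PSMA5 (-0.38) and PSMA6 (-0.10) had groups that did, and PSMA1 was closest to 0. PSMA1 had 209, 218 and 199.9 FPKM in oeALKBH5 libraries and 211, 207 and 226 FPKM in NC libraries, a log2 fold change of -0.04 (95% interval -0.20 to 0.12). The members of this ring are built into the particle in equal numbers, and their mRNA differences spanned -0.53 to -0.04.

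The constitutive beta ring was represented by 6 genes, and PSMB3 was not analysed here. Their summed level was 596, 584 and 584 FPKM in oeALKBH5 libraries, against 685, 724 and 681 FPKM in NC libraries, a difference of -15.6% between the means. The median log2 fold change was -0.33. Limma called 0 of the 6. In 5 of 6 all oeALKBH5 values lay below all NC values, as in 13% of all tested genes and 19.3% of those averaging 20 FPKM or more. An unadjusted p under 0.05 was found for 4, all lower, and on that side for 1318 of all 12757 tested genes. The most negative fold changes were in catalytic subunits. PSMB5, the chymotrypsin-like subunit, had 62.6, 69.5 and 52.3 FPKM in oeALKBH5 libraries, against 80.4, 86.3 and 86.4 FPKM in NC libraries (limma log2 fold change -0.46, SE 0.12, adjusted p = 0.0604). PSMB6, the caspase-like subunit, had 54.8, 55.2 and 63 FPKM in oeALKBH5 libraries, against 69.9, 83.9 and 81.6 FPKM in NC libraries (limma log2 fold change -0.44, SE 0.11, adjusted p = 0.0585). PSMB7, the trypsin-like subunit, was nearly level, with 102, 110 and 105 FPKM in oeALKBH5 libraries and 108, 109 and 114 FPKM in NC libraries (log2 fold change -0.05, 95% interval -0.24 to 0.13). The structural subunits PSMB1, PSMB2 and PSMB4 had log2 fold changes of -0.31, -0.36 and -0.13. PSMB4 was the most abundant gene of this ring and PSMB2 the least abundant, at most 36.6 FPKM in any library.

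The 6 ATPases of the 19S base summed to 477, 412 and 447 FPKM in oeALKBH5 libraries, against 546, 568 and 567 FPKM in NC libraries. All 6 had negative log2 fold changes, and 1 fell. PSMC5, also known as RPT6, had 100.9, 92.3 and 87.1 FPKM in oeALKBH5 libraries, against 132, 149 and 136 FPKM in NC libraries. It was the most abundant of the ATPases by the mean of either group, and it had the smallest p of the whole family and no overlap between groups (limma log2 fold change -0.57, SE 0.09, adjusted p = 0.0108). Its call was lost without NC replicate 3 (limma adjusted p = 0.0542) or without oeALKBH5 replicate 3 (0.0509). In the RefSeq annotation PSMC5 overlaps FTSJ3, which had 28.4, 24 and 18.9 FPKM in oeALKBH5 libraries and 23.4, 30.2 and 40.5 FPKM in NC libraries, and how overlapping reads were divided was not tested. Another 6 members overlap a protein-coding gene there: PSMC1, PSMC2, PSMC3IP, PSMD1, PSMD10 and PSMG2. Antisense genes overlap PSMA3 (PSMA3-AS1), PSMB8 (PSMB8-AS1) and PSMD6 (PSMD6-AS1 and PSMD6-AS2), and whether the strand was used in the counting is not given in the sources used here. PSMC2 (log2 fold change -0.43) and PSMC3 (-0.37) had groups that did not overlap and an unadjusted p under 0.05, but missed the adjusted threshold (limma adjusted p = 0.0811 and 0.0707). PSMC6 had a log2 fold change of -0.23, PSMC4 of -0.16 and PSMC1, the nearest to 0, of -0.10. The lowest single value of the class was 49.1 FPKM, of PSMC3 in oeALKBH5 replicate 3.

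The promoters of PSMA3 and PSMC5 are shown because these genes had the smallest p-values of the family. The windows run from 250 bases before to 50 bases after a start and come from RefSeq (GRCh38.p14). They lie at chr14:58244593-58244892 on the plus strand and at chr17:63827181-63827480 on the plus strand, the first of the starts listed for PSMC5. Capitals mark CCAAT or its reverse complement, the site of the factor NF-Y.
PSMA3: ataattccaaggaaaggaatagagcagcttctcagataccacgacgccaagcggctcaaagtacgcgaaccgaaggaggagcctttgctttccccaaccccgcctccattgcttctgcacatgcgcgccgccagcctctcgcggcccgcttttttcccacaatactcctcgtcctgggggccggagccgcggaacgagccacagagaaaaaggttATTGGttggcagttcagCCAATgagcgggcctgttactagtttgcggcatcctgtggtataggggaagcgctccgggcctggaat
PSMC5: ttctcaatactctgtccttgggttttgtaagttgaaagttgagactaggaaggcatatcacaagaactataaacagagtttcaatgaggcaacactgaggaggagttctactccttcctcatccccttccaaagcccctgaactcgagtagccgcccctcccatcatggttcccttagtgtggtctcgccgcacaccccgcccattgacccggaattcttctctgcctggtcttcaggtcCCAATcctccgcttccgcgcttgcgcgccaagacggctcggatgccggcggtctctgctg
PSMA3 has a match on each strand, at positions -35 to -31 and -18 to -14 from the start, and PSMC5 has 1 match at -10 to -6. The other window of PSMC5 has none. Among the 38 constitutive genes with a window in the tables, 20 (52.6%) had CCAAT on either strand in at least 1 window, against 39.7% of 27305 gene symbols. The antioxidant response pattern TGACNNNGC, which resembles the sites of the proteasome regulators NRF1 and NRF2, was found for 11 of the 38 (28.9%), for 3 of the 5 inducible genes (PSMB9, PSME1 and PSME2) and for 16.1% of all symbols. CCAAT was found for 1 of the 5. Genes differ in their number of windows, and a match is a description of the letters only.

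Of the 11 non-ATPase subunits of the 19S particle, limma called 0. An unadjusted p under 0.05 was found for 4, all lower, and on that side for 1318 of all 12757 tested genes. The 4 subunits were PSMD14, PSMD4, PSMD1 and PSMD2. PSMD14, the metalloprotease that cuts ubiquitin off the substrate, had 55.5, 43.7 and 49.7 FPKM in oeALKBH5 libraries, against 60.9, 70.7 and 72.5 FPKM in NC libraries (log2 fold change -0.45, limma adjusted p = 0.0752). PSMD4, a ubiquitin receptor, had 82.5, 83.1 and 67.1 FPKM in oeALKBH5 libraries, against 98.1, 95.8 and 109.9 FPKM in NC libraries (log2 fold change -0.38, limma adjusted p = 0.0877). The scaffold subunits PSMD1 and PSMD2 had log2 fold changes of -0.38 and -0.41, the groups of PSMD2, the most abundant gene of the class, overlapping. The lid subunits PSMD8 and PSMD13 went the other way, with log2 fold changes of 0.09 and 0.07 that did not pass the test. The remaining PSMD3, PSMD6, PSMD7, PSMD11 and PSMD12 lay between -0.27 and -0.08.

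An assembly chaperone of the 20S core had the most negative log2 fold change of the family on the log2(FPKM + 1) scale. PSMG3, also known as PAC3, which helps to order the alpha ring, had 38, 28.7 and 31.8 FPKM in oeALKBH5 libraries, against 45.2, 56.1 and 52 FPKM in NC libraries. It fell, with no overlap (limma log2 fold change -0.63, SE 0.14, adjusted p = 0.0399). Its call was lost without NC replicate 1 (limma adjusted p = 0.0589), NC replicate 2 (0.123), NC replicate 3 (0.141), oeALKBH5 replicate 2 (0.108) or oeALKBH5 replicate 3 (0.115). PSMG1 and PSMG2, which act as a pair, had log2 fold changes of -0.38 and -0.30 with no overlap and did not pass the test (limma adjusted p = 0.0973 and 0.174). PSMG4, the partner of PSMG3, had 11.5, 16.1 and 14.9 FPKM in oeALKBH5 libraries and 16.1, 10.4 and 15.1 FPKM in NC libraries, with no direction beyond its spread (log2 fold change 0.04, 95% interval -0.44 to 0.52). Among the chaperones of the 19S base, PSMD9 had 23.4, 23.6 and 21.9 FPKM in oeALKBH5 libraries, against 31.1, 31.6 and 34.7 FPKM in NC libraries (limma log2 fold change -0.48, SE 0.12, adjusted p = 0.0592). PSMD5 had a log2 fold change of -0.15, and PSMD10, known as gankyrin, of 0.04.

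None of the remaining constitutive members passed the test. The nuclear activator PSME3 (PA28 gamma) had 99.2, 86.6 and 110.3 FPKM in oeALKBH5 libraries and 124, 109 and 112 FPKM in NC libraries (log2 fold change -0.23, limma adjusted p = 0.265). PSME4 (PA200), an activator that caps the core in the nucleus, differed little, with a log2 fold change of -0.08. The regulator PSMF1 (PI31), an inhibitor of the core in vitro, had 26.5, 16 and 36 FPKM in oeALKBH5 libraries and 32.8, 31.9 and 37.8 FPKM in NC libraries, groups that overlapped (log2 fold change -0.44, limma adjusted p = 0.347). The partner proteins PSME3IP1 and PSMC3IP had log2 fold changes of -0.53 and -0.51 with no overlap (limma adjusted p = 0.106 and 0.228). PSME3IP1 passed the threshold without oeALKBH5 replicate 1 (limma adjusted p = 0.0467).

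**Figure D3:**
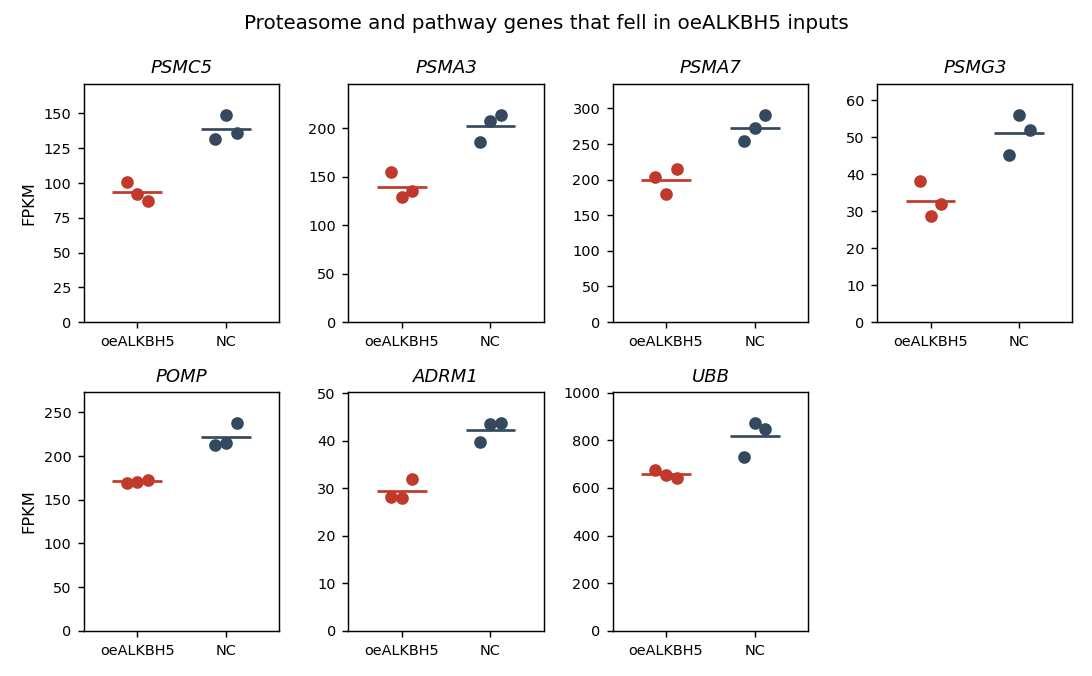
FPKM in each input library (points; bars are group means, 3 libraries each) of the 4 proteasome genes and the 3 other pathway genes that passed an adjusted p under 0.05, each on its own axis from 0. In all 7 genes every oeALKBH5 point lies below every NC point.

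The 5 inducible members are set apart by their response to interferon, and their promoters are shown because 4 of them carry the same interferon response letters. Windows are again from RefSeq (GRCh38.p14), 250 bases before to 50 bases after a start, read on the gene's strand. They lie at chr6:32843998-32844297 on the minus strand, chr6:32853942-32854241 on the plus strand, chr16:67936801-67937100 on the minus strand, chr14:24135944-24136243 on the plus strand and chr14:24146561-24146860 on the minus strand. Capitals mark GAAA, any 2 bases and GAAA again on either strand, the core of the interferon-stimulated response element that IRF factors bind.
PSMB8: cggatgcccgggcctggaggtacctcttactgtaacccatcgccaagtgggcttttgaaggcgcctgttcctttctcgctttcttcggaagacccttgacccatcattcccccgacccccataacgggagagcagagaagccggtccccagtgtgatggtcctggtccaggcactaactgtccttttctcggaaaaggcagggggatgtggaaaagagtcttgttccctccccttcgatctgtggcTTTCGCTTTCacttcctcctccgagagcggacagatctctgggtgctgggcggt
PSMB9: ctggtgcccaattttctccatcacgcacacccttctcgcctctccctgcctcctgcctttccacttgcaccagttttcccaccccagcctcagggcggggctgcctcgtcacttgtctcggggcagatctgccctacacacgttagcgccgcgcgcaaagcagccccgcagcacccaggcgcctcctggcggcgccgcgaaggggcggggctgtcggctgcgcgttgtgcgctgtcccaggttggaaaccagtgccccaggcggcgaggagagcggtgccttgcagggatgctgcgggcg
PSMB10: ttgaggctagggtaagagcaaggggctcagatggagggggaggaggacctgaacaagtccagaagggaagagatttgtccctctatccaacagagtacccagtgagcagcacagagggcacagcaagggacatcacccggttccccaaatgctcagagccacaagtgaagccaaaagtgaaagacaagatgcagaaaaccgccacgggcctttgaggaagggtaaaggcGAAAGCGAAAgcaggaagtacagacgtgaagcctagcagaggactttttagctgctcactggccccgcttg
PSME1: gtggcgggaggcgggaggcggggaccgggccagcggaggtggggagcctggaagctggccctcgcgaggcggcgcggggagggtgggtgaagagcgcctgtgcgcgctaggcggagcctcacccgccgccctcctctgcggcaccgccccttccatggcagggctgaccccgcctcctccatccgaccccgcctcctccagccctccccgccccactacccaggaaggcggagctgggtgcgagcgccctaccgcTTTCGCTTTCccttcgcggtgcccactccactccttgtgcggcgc
PSME2: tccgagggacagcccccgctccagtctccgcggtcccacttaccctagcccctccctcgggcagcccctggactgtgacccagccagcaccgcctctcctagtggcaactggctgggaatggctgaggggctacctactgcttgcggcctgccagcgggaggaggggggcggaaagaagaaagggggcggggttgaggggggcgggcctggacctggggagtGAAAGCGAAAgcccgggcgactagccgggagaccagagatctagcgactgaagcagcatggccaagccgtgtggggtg
The match lies at positions -4 to 6 in PSMB8, -21 to -12 in PSMB10, 6 to 15 in PSME1 and -28 to -19 in PSME2. The other window of PSMB8 and the window of PSMB9 have none. With any window of a gene counted, 4 of the 5 inducible genes (80%) held these letters, against 3 of 38 constitutive genes (7.89%; PSMA4, PSMB4 and PSMG4) and 4.38% of 27305 gene symbols.

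The inducible members were dominated by PSME1 and PSME2. Summed over the 5 genes, their level was 142, 166 and 138 FPKM in oeALKBH5 libraries, against 117, 131 and 115 FPKM in NC libraries, so that the means differed by 23.1% with no overlap. Their median log2 fold change was 0.30. It ran from 0.08 without oeALKBH5 replicate 2 to 0.50 without oeALKBH5 replicate 1 over the alternatives run, and was 0.10 without NC replicate 3. Limma called 0 of the 5 higher, where it called 3.02% of all tested genes higher, and 1 had an unadjusted p under 0.05. That gene, PSME1, had 64.1, 77 and 73.1 FPKM in oeALKBH5 libraries, against 49.5, 50.6 and 58.6 FPKM in NC libraries. Every oeALKBH5 value lay above every NC value, as in 15.1% of all tested genes, and the difference missed the threshold (limma log2 fold change 0.43, SE 0.12, 95% interval 0.17 to 0.69, adjusted p = 0.0707). PSME2, its partner in the PA28 ring, had 73.8, 68.7 and 55.2 FPKM in oeALKBH5 libraries and 56.4, 73.1 and 47.9 FPKM in NC libraries. These groups overlapped (log2 fold change 0.16, 95% interval -0.22 to 0.55, limma adjusted p = 0.614). Its neighbour RNF31 had 26.6, 24.5 and 28.7 FPKM in oeALKBH5 libraries and 21.9, 6.89 and 21 FPKM in NC libraries, so that PSME2 was highest and RNF31 lowest of the NC libraries in replicate 2. Any exchange of reads between these neighbours was not tested.

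The inducible catalytic subunits were scarce in both groups. PSMB8 (beta5i) had 0.831, 2.85 and 2.24 FPKM in oeALKBH5 libraries and 1.85, 1.45 and 0.745 FPKM in NC libraries (log2 fold change 0.30, 95% interval -0.54 to 1.14, limma adjusted p = 0.687). PSMB9 (beta1i) was listed at 0, 7.14 and 2.17 FPKM in oeALKBH5 libraries and at 1.53, 1.59 and 1.09 FPKM in NC libraries (log2 fold change 0.30, 95% interval -1.17 to 1.77, limma adjusted p = 0.832). PSMB10 (beta2i) had 3.22, 10.5 and 5.34 FPKM in oeALKBH5 libraries and 7.93, 3.75 and 6.47 FPKM in NC libraries (log2 fold change -0.01, 95% interval -0.90 to 0.87, limma adjusted p = 0.989). In all 3 genes the groups overlapped, and oeALKBH5 replicate 1 was the lowest and replicate 2 the highest of its group. The intervals are wide, so a rise of a log2 unit in PSMB8 or PSMB9 lies within them, and the scale of log2(FPKM + 1) understates changes at such levels. At these levels the sign is not fixed either: without oeALKBH5 replicate 2 the log2 fold change of PSMB9 was -0.43, and without oeALKBH5 replicate 1 that of PSMB10 was 0.32.

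Immune cells hold the inducible subunits constitutively, so their markers were read beside these values. The summed level of 15 immune markers was 6.14, 10.8 and 9.83 FPKM in oeALKBH5 libraries, against 6.56, 1.40 and 2.71 FPKM in NC libraries. MS4A1 and NKG7 were at 0 in all libraries. PTPRC was at most 0.456 FPKM, with every oeALKBH5 value above every NC value. CSF1R and ITGAM were above 0 in every oeALKBH5 library and at 0 in every NC library. TYROBP was above 0 in oeALKBH5 libraries only. CD3E and FCER1G had lower means in oeALKBH5 than in NC, and CD2 was above 0 in NC replicate 1 only. Limma called 0 of the 4 tested markers, of which CD3D had an unadjusted p under 0.05. The summed level of 6 fibroblast markers was 4.08, 28.1 and 8.75 FPKM in oeALKBH5 libraries, against 13.1, 6.01 and 4.05 FPKM in NC libraries. Most of the 28.1 FPKM was COL1A1 (27.6 FPKM), while DCN and LUM were at 0 in all libraries. Both sums were highest in oeALKBH5 replicate 2, as were PSMB8, PSMB9 and PSMB10, and the estimated depth of that library was the lowest, at 0.768 of NC replicate 1. The part of either in those values was not tested.

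Each inducible catalytic subunit takes the place of a constitutive one in the ring, so the share of the inducible mRNA in each pair was compared. PSMB8 made up 1.31%, 3.94% and 4.10% of PSMB8 plus PSMB5 in oeALKBH5 libraries and 2.25%, 1.66% and 0.855% in NC libraries (exact permutation test, two-sided p = 0.3, adjusted p = 0.6). PSMB9 made up 0%, 11.4% and 3.32% of PSMB9 plus PSMB6 in oeALKBH5 libraries and 2.14%, 1.87% and 1.32% in NC libraries (exact permutation test, p = 0.6, adjusted p = 0.8). PSMB10 made up 3.05%, 8.72% and 4.82% of PSMB10 plus PSMB7 in oeALKBH5 libraries and 6.85%, 3.34% and 5.39% in NC libraries (exact permutation test, p = 1, adjusted p = 1). The constitutive subunit thus made up most of each pair in every library. The ratio of PSME1 plus PSME2 to PSME3 was 1.39, 1.68 and 1.16 in oeALKBH5 libraries, against 0.852, 1.14 and 0.948 in NC libraries. It was higher in all 3 oeALKBH5 libraries, by 0.52 on the log2 scale, with the smallest p that 3 libraries against 3 allow (exact permutation test, p = 0.1, adjusted p = 0.4). Part of this difference lay in the denominator, since PSME3 had a mean of 98.7 FPKM in oeALKBH5 libraries against 115 FPKM in NC libraries. The adjustment ran over the 4 ratios (Benjamini-Hochberg), and none could pass 0.05 in this design.

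**Figure D4:**
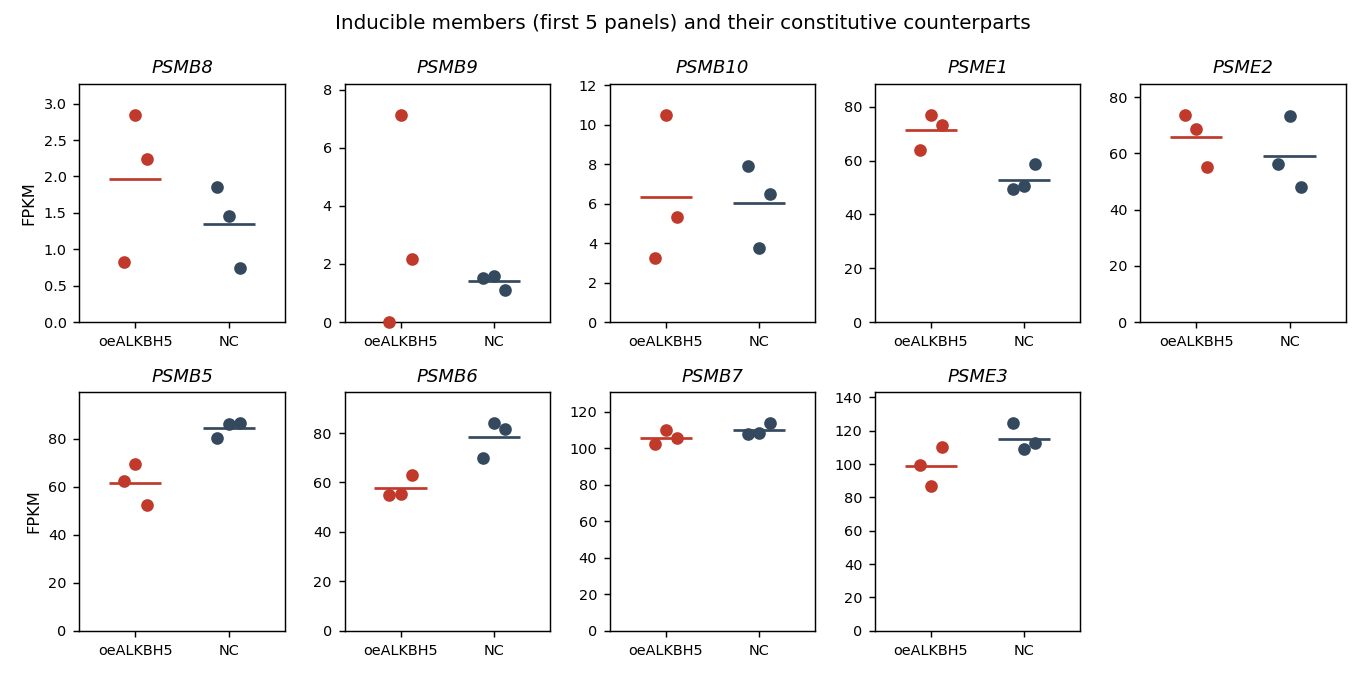
FPKM in each input library (points; bars are means of groups with no value at 0, 3 libraries each) of the inducible members PSMB8, PSMB9, PSMB10, PSME1 and PSME2 and of the constitutive counterparts PSMB5, PSMB6, PSMB7 and PSME3, each on its own axis from 0. Groups overlap in PSMB8, PSMB9, PSMB10 and PSME2 and separate in PSME1, PSMB5 and PSMB6.

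Other interferon genes of the same libraries, chosen after their values were seen, are set beside these members. IFIT1, an antiviral RNA-binding protein, had 122, 184 and 123 FPKM in oeALKBH5 libraries, against 2.01, 1.85 and 1.41 FPKM in NC libraries (log2 fold change 5.69, limma adjusted p = 3.94e-06). That was the highest log2 fold change of all 12757 tested genes, so IFIT1 is not a typical interferon gene here. IRF1, a transcription factor known to act on the PSMB9 promoter, had 7.07, 7.99 and 6.44 FPKM in oeALKBH5 libraries, against 3.35, 0.754 and 1.49 FPKM in NC libraries, and rose (log2 fold change 1.61, limma adjusted p = 0.0331). The call of IRF1 was lost in 5 of the 6 fits without 1 library, all but that without NC replicate 1, with limma adjusted p up to 0.124 without NC replicate 3. IRF9, which lies near PSME2, had 0.814, 2.02 and 1.78 FPKM in oeALKBH5 libraries, against 5.28, 8.75 and 5.59 FPKM in NC libraries. It fell (log2 fold change -1.58, limma adjusted p = 0.0235), a call lost in every such fit but that without oeALKBH5 replicate 2, with limma adjusted p up to 0.0867 without NC replicate 2. TAP1 and TAP2, peptide transporters beside PSMB9 and PSMB8, did not pass the test. TAP1 had 8.94, 7.60 and 8.80 FPKM in oeALKBH5 libraries and 6.22, 7.05 and 6.11 FPKM in NC libraries (limma adjusted p = 0.338), and TAP2 had 6.45, 4.56 and 5.35 FPKM in oeALKBH5 libraries and 13, 3.40 and 6.46 FPKM in NC libraries (limma adjusted p = 0.734).

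Among 46 further genes of proteasome assembly, control and substrate delivery, 45 were tested. Limma called 3 lower (6.67%, against 2.43% of all tested genes) and 0 higher (against 3.02%). All 3 averaged 20 FPKM or more, a level at which limma called 5.04% of tested genes lower. An unadjusted p under 0.05 was found for 9 on the lower side and 4 on the higher side. Of all 12757 tested genes, 1318 and 1475 had one. All oeALKBH5 values lay below all NC values in 14 of the 45 (31.1%). Of all tested genes 13% did so, and 19.3% of those averaging 20 FPKM or more. All oeALKBH5 values lay above all NC values in 8 of the 45, and in 15.1% of all tested genes. Their median log2 fold change was 0.00, against -0.30 over the constitutive proteasome genes. POMP, which completes the assembly of the 20S core, had 169.7, 171 and 172 FPKM in oeALKBH5 libraries, against 212, 215 and 237 FPKM in NC libraries (limma log2 fold change -0.37, SE 0.07, adjusted p = 0.024). ADRM1, a ubiquitin receptor of the 19S particle, had 28.2, 27.9 and 32.1 FPKM in oeALKBH5 libraries, against 39.7, 43.5 and 43.7 FPKM in NC libraries (limma log2 fold change -0.51, SE 0.12, adjusted p = 0.043). The polyubiquitin gene UBB had 676, 654.5 and 641 FPKM in oeALKBH5 libraries, against 729, 871 and 849 FPKM in NC libraries (limma log2 fold change -0.31, SE 0.07, adjusted p = 0.0464).

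These 3 calls were also fragile. For ADRM1, leaving out any one of the 6 libraries ended the call, with limma adjusted p up to 0.15 without NC replicate 3. POMP lost it in all but the fit without NC replicate 1, with limma adjusted p up to 0.103, again without NC replicate 3. UBB did likewise, with limma adjusted p up to 0.169 without NC replicate 3. The uncalled genes with the smallest p stood on opposite sides. ZFAND5, a stress-induced activator of the 26S proteasome, had 129, 114 and 117 FPKM in oeALKBH5 libraries, against 94.1, 97.5 and 79 FPKM in NC libraries (log2 fold change 0.41, limma adjusted p = 0.0592). UBE2K, a ubiquitin-conjugating enzyme, had 84.2, 89.6 and 74.6 FPKM in oeALKBH5 libraries, against 114, 103 and 106 FPKM in NC libraries (log2 fold change -0.38, limma adjusted p = 0.0619). The transcription factors of proteasome genes, NFE2L1 and NFE2L2 (NRF1 and NRF2), had log2 fold changes of 0.04 and 0.00, small against their SE (limma adjusted p = 0.884 and 0.987). These are mRNA levels, and the activity of either protein was not tested.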

How the data were processed

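Gene values of 6 input libraries, 3 oeALKBH5 and 3 NC, were used. They were taken as FPKM made by the authors: no unit is named in the table, but the values and the tools in the submitters' processing notes, cutadapt 1.9.3, HISAT2 2.0.4, Cuffdiff and Cufflinks with the build hg19, point to it. The roles and order of these tools are not given in the sources used here. No counts of reads were used, so depth is unknown. A search for steps of whole reads among 199 low genes put the libraries at 0.768 to 1.15 of the depth of NC replicate 1, each on at most 28 genes, an uncertain estimate. The m6A peak lists give hg19 positions with no gene names and were not used here.

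Symbols were found for 19434 of 20308 gene IDs. The fit was limma (version 3.58.1, R 4.3.3) with the intensity trend on, applied to log2(FPKM + 1). Genes averaging 0.5 FPKM or more in the 6 libraries were tested, with p-values adjusted over all of them. Shares and ratios had an exact permutation test over libraries. Alternatives were a pseudocount of 0.1, no filter, a filter at 1 FPKM, quantile and median scaling, no trend, a replicate block and each library left out. On simulated data for oeALKBH5 against NC with 12757 genes, limma recovered 35% of 100 genes changed by 0.5 and 82% of 100 changed by 1 on the log2 scale, with 4 false calls. The changed genes were drawn only from those above a set level, so recovery at levels as low as PSMB8 and PSMB9 was not measured. The noise was normal and independent, with variances smoothed along the level, which is simpler than real libraries. Other steps used Python 3.11.15 with scipy 1.17.1, pandas 2.3.3, matplotlib 3.10.9 and numpy 2.4.6.

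The members and lists were chosen with earlier results of these data known. All members were to be given, those called and the 5 inducible ones in full; of the other pathway genes, those called and the 2 uncalled with the smallest p. NFE2L1, NFE2L2, FTSJ3, IFIT1 and IRF1 were added after their values were seen. Of 3 endothelial markers, 2 were in the table, at most at 1.12 FPKM. Of 4 sequence patterns searched in the promoters, 1 is not reported here.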

Additional observations from a re-analysis of the deposited data

How the results depend on the processing

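Of 611 values, those of 47 proteasome genes under 13 alternatives each, 573 kept their sign and side of the threshold, 24 lost a call, 2 gained one and 12 turned their sign. The number of all genes called, 695, was 421 without a filter, 270 without the trend, and 206 to 398 with 1 library left out. The number of proteasome genes called lower, and of constitutive ones, 4 in each case, was 2 without a filter (PSMC5 and PSMD9), 0 without the trend, and 0 to 4 with 1 library left out. The number of other pathway genes called lower, 3, was 1 under quantile normalization, 0 without the trend and 0 to 2 with 1 library left out. No inducible gene was called under any alternative run. The median log2 fold change of the constitutive genes, -0.30, was -0.25 under quantile normalization and ran from -0.32 to -0.24 with 1 library left out. Leaving out PSMC3IP and PSME3IP1, an alternative chosen after seeing the data, gave 4 calls and a median of -0.28.

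The deviations of same-numbered libraries from their group means had correlations of -0.02 to 0.03, and 1 of 3 oeALKBH5 libraries correlated best with the NC library of its number. These values show no pairing by number. Whether same-numbered libraries were prepared together is not given in the sources used here. With the replicate block, 344 genes of all were called, 2 proteasome genes, both constitutive (PSMA7 and PSMC5), and 0 other pathway genes.

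Signs turned in genes that were not called. The PSMB9 share difference, 3.15 percentage points, ran from -0.11 to 5.61 with 1 library left out, and that of PSMB10, 0.34, was -0.18 under quantile normalization and ran from -1.25 to 1.58 with 1 library left out. The log2 fold change of PSMA1 was 0.036 under quantile normalization and that of PSMB9 was -0.34 with a pseudocount of 0.1. With 1 library left out, the log2 fold change ran from -0.43 to 1.08 in PSMB9, from -0.40 to 0.32 in PSMB10, from -0.010 to 0.11 in PSMD10, from -0.0061 to 0.18 in PSMD13, from -0.14 to 0.17 in PSMG4 and from -0.68 to 0.16 in TAP2. The cause of these changes was not tested. PSMB8, PSMB9 and PSMB10, at low levels, had the widest intervals of the tested members.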
